A study of Zea mays with 4 samples.

Results

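The data described here are the transcript levels of 5 maize genes for enzymes that cleave sucrose, out of 39179 genes in a table of FPKM values, which are fragments scaled to the length of the gene and to the mapped fragments of the library. They were taken by gene identifier. The sucrose synthases are sh1 (Zm00001d045042), sus1 (Zm00001d047253) and Sus5 (Zm00001d051837), and the cell-wall invertases are incw1 (Zm00001d016708) and Invcw2 (Zm00001d003776). Total RNA came from greenhouse-grown Puma hybrid plants, before pollination, at 60 DAS (days after sowing). There were 2 libraries of the female inflorescence (FI), which had been bagged before the silks emerged, and 2 libraries of the stem's top internode (TI). The study calls the 2 libraries of a tissue biological replicates, and neither tissue carried a treatment or an introduced allele. The tissues were frozen and milled before RNA extraction, so the values are means over all cell types in a sample. Fewer cells of a type and less RNA per cell cannot be told apart. The study sets FI beside TI because the tissues hold different amounts of sugar and starch, and the comparison asks which enzymes of sucrose cleavage differ at the transcript level.

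Sucrose reaches a sink tissue through the phloem and is cleaved there along 2 routes. Sucrose synthase, a cytosolic enzyme, splits sucrose with UDP into UDP-glucose and fructose in a reversible reaction, and UDP-glucose feeds starch and cellulose synthesis. Cell-wall invertase hydrolyses sucrose irreversibly outside the cell into glucose and fructose, which hexose transporters then take up. In maize, sh1 (shrunken1) and the cell-wall invertase gene Miniature1 are known from kernel mutants with defective filling, and invertase activity around pollination has long been studied for its part in kernel set. RefSeq lists the gene called Invcw2 here also as INCW2 and mn1, the symbol of Miniature1.

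The study designed PCR primers for 2 of the 5 genes, Sus5 and Invcw2. These oligos are shown because they belong to the isoforms whose levels separated the tissues below. The study lists each pair with the gene identifier of its isoform. Whether a pair also matches another copy of the family was not tested. All letters are lower case, and each primer is written 5′ to 3′.
Sus5 forward: gtcacaaggctcataccagaag
Sus5 reverse: gtaagggtagatgtcgaagcg
Invcw2 forward: taccaagtcgtccctgaacc
Invcw2 reverse: gtagaccctggagaggatgc
The Invcw2 primers are both 20 bases long, with 11 and 12 G or C bases. The Sus5 primers have 22 and 21 bases, with 11 G or C bases each.

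The depth of the libraries limits what can be said of the rare isoforms. Because each FPKM is a whole number of fragments times a fixed factor, the fragments could be recovered. The mapped fragments numbered 4552953 and 4071536 for the FI libraries, in replicate order, and 3464635 and 2807120 for the TI libraries. A second table of raw counts held 2431447, 2072230, 1817889 and 1455729 counts in the same order. Limits printed below with a value are 95% Poisson limits of its fragments, and they cover counting error only. Tissues were compared on log2(FPKM + 1) with limma over the 19531 genes whose mean was 1 FPKM or more, with Benjamini-Hochberg adjustment (FDR). A log2FC above 0 stands for higher expression in FI, and the pseudocount makes it too small for the rare isoforms. An exact permutation test (two-sided) of a single value, here 2 libraries against 2, has p = 0.333 as its smallest result.

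The inflorescence and the internode were separated from each other by their summed floral and photosynthetic markers, but unevenly. Of 16 genes listed as markers of floral organs and inflorescence meristems, 10 had rows in the count table, and their summed level was 265 and 226 CPM (counts scaled to the library total) in FI, 38.0 CPM in TI replicate 1 and 137 CPM in TI replicate 2. TI replicate 1 held 15.5% of the FI mean of these markers and TI replicate 2 held 55.9%. One of the list, the meristem gene kn1, was higher in both TI libraries (8.23 and 5.79 CPM in FI, 24.2 and 14.4 CPM in TI), and without it the shares were 5.76% and 51.5%, a sum chosen after its values were seen. In TI replicate 1, 6 of the 10 were at 0, among them the MADS-box genes bde1 and zag2, and in TI replicate 2 only bd1 was at 0. The photosynthetic markers with rows, 4 of 9, added up to 122 and 69.0 CPM in FI, 546 CPM in TI replicate 1 and 177 CPM in TI replicate 2. The 4 secondary wall markers with rows, of 6, added up to 79.8 and 81.6 CPM in FI against 123 and 117 CPM in TI, but they were mixed. Only bm1 was higher in both TI libraries (22.21 and 23.65 CPM in FI, 89.11 and 71.44 CPM in TI). Both cesa10 and cesa12 were lower in both TI libraries. TI replicate 2 therefore lay between TI replicate 1 and FI for the floral and photosynthetic lists, and the main differences below are also given without it.

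The sucrose synthases sus1 and sh1 carried nearly all transcripts of the 5 genes in both tissues. The most abundant was sus1, the sucrose synthase known from many maize tissues. Its level was 280.7 FPKM in FI replicate 1, 303.1 FPKM in FI replicate 2, 235.2 FPKM in TI replicate 1 and 282.4 FPKM in TI replicate 2. The tissues overlapped, since TI replicate 2 lay above FI replicate 1. The mean was 292 ± 15.9 FPKM in FI and 259 ± 33.4 FPKM in TI (SD, n = 2 each), and the limma log2FC was 0.18 (95% interval −0.41 to 0.77, FDR 0.655). It ranked between 51st and 130th of the 22097 to 23870 genes above 0 in a library, so that at least 99.4% of these genes had a lower FPKM.

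The second was sh1, best known as the sucrose synthase of the endosperm. It was present at 105.2 and 99.7 FPKM in FI and at 107.1 and 78.7 FPKM in TI, in replicate order. TI replicate 1 was the highest of the 4 libraries and TI replicate 2 the lowest, so the tissues overlapped. The mean was 102.5 ± 3.86 FPKM in FI and 92.9 ± 20.1 FPKM in TI (SD, n = 2 each), with a limma log2FC of 0.16 (95% interval −0.52 to 0.83, FDR 0.736). Between the TI libraries its level differed 1.36-fold (95% binomial interval of the ratio 1.25 to 1.48), which is more than counting error, while the ratio of the FI libraries was 1.05 (0.987 to 1.13). Leaving out TI replicate 2 turned the log2FC to −0.064.

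The third sucrose synthase, Sus5, was rare and its libraries separated by tissue. It had 6.13 FPKM in FI replicate 1 (76 fragments, limits 4.83 to 7.67), 4.87 FPKM in FI replicate 2 (54 fragments, 3.66 to 6.35), 0.424 FPKM in TI replicate 1 (4 fragments, 0.116 to 1.09) and 1.96 FPKM in TI replicate 2 (15 fragments, 1.10 to 3.24). Both FI libraries were above both TI libraries, and the Poisson limits of the tissues did not overlap. The FI mean of 5.50 ± 0.890 FPKM was 4.61 times the TI mean of 1.19 ± 1.09 FPKM (SD, n = 2 each). The limma log2FC was 1.66 ± 0.42 (SE, 95% interval 0.51 to 2.80), with an unadjusted p of 0.0154 and an FDR of 0.255, so the gene did not pass the threshold of 0.05 over all genes. An unadjusted p under 0.05 was found for 18.0% of all genes tested (3524 genes). The TI libraries differed beyond counting error, with a ratio of replicate 1 to replicate 2 of 0.216 (95% binomial interval 0.0522 to 0.678).

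Of the invertases, incw1 had a low level in every library, and its tissues were not separated. It had 3.77 FPKM in FI replicate 1 (67 fragments), 2.77 FPKM in FI replicate 2 (44 fragments), 3.26 FPKM in TI replicate 1 (44 fragments) and 3.38 FPKM in TI replicate 2 (37 fragments). Both TI libraries lay between the FI libraries. The means were 3.27 ± 0.709 FPKM in FI and 3.32 ± 0.0872 FPKM in TI (SD, n = 2 each). The limma log2FC was −0.03 (95% interval −0.64 to 0.59, FDR 0.956). Leaving out FI replicate 2 turned the log2FC to 0.14.

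The other invertase, Invcw2, was present in both FI libraries and in 1 TI library. Its level was 7.76 FPKM in FI replicate 1 (67 fragments, limits 6.02 to 9.86), 7.25 FPKM in FI replicate 2 (56 fragments, 5.48 to 9.42), 0 in TI replicate 1 and 3.57 FPKM in TI replicate 2 (19 fragments, 2.15 to 5.58). The FI libraries agreed within counting error, both were above TI replicate 2, and the limits of FI replicate 2 and TI replicate 2 overlapped. For TI replicate 1 the floor was set at 3 fragments in that library, worth 0.457 FPKM, and the upper Poisson limit of 0 fragments was 0.562 FPKM. The FI mean of 7.51 ± 0.359 FPKM (SD, n = 2) was 16.4 times the floor of 3 fragments, which lies below that Poisson limit. Over the whole TI group, at 1.79 ± 2.52 FPKM (SD, n = 2), the SD exceeded the mean. The limma log2FC was 1.99 ± 0.78 (SE, 95% interval −0.12 to 4.10), with an unadjusted p of 0.0590 and an FDR of 0.282. With a pseudocount of 0.1 in place of 1 it was 3.65 ± 1.95 (SE, FDR 0.387), and that of Sus5 was 2.42 ± 0.77 (FDR 0.359).

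**Figure D1:**
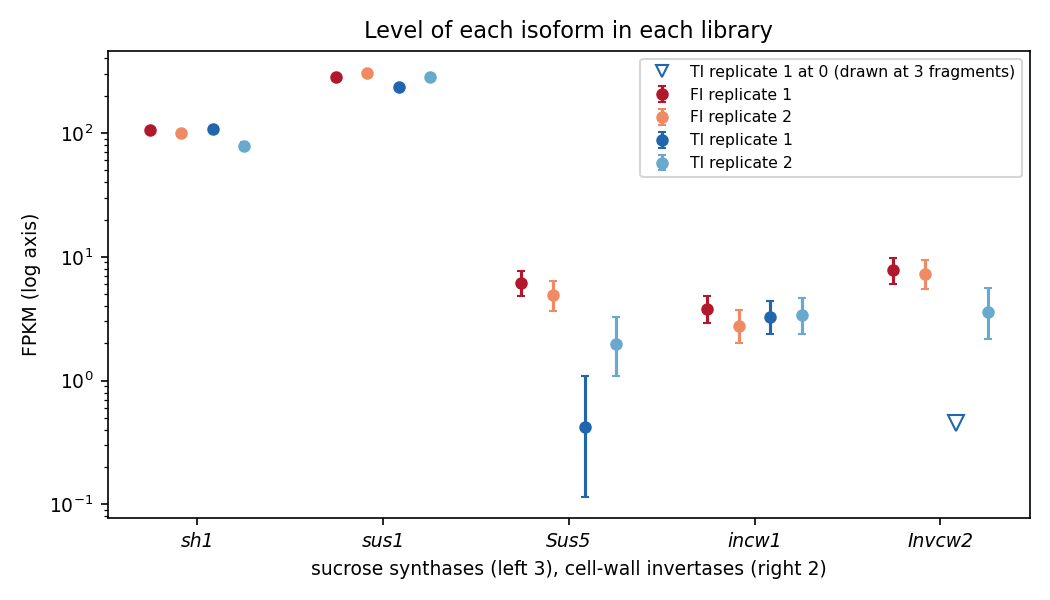
FPKM of the 5 isoforms on a log axis, with 1 point for each of the 4 libraries and bars for the 95% Poisson limits of the fragments (counting error only). The open triangle is Invcw2 in TI replicate 1, where it was at 0, drawn at the 0.457 FPKM that 3 fragments are worth. In each library sus1 and sh1 lie above 78 FPKM and the other genes below 8 FPKM.

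In the order of levels, sus1 and sh1 came first and second in every library, with Poisson limits that did not overlap those of any other isoform. In FI the mean FPKM then fell from Invcw2 to Sus5 to incw1. The limits of Invcw2 and Sus5 overlapped in both FI libraries, and those of Sus5 and incw1 overlapped in FI replicate 2. In TI the order of means after sh1 was incw1, Invcw2 and Sus5, which was the order in neither TI library. In TI replicate 2 the limits of Invcw2 overlapped both those of incw1 (2.38 to 4.66 FPKM) and those of Sus5, so these neighbours could not be ordered there. In TI replicate 1, incw1 (limits 2.37 to 4.37 FPKM) was above both.

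Of the 5 isoforms, 2 had both FI libraries above both TI libraries (Sus5 and Invcw2), where 33.0% of all genes tested did so. None had both TI libraries above both FI libraries, which 27.5% of all genes did. The median log2FC was 0.18 over the 5 genes and 0.06 over all genes tested. No isoform had an FDR under 0.05, and 0.0% of all genes passed the study's thresholds (FDR under 0.05 and absolute log2FC over 2) in limma, the lowest FDR of any gene being 0.209. On the recovered fragments, the exact test of edgeR gave Sus5 a log2FC of 2.20 with an FDR of 0.0456. By that test 1.42% of all genes had an FDR under 0.05 and higher values in FI, and 596 of 18148 genes passed both thresholds. By the quasi-likelihood test of edgeR on the same fragments, Sus5 had a log2FC of 2.21 with an FDR of 0.270. Invcw2 had an FDR of 0.219 or more, by limma or edgeR, in each of the 6 alternatives with 4 libraries that kept it.

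The differences of Sus5 and Invcw2 depended on which TI library was kept. Without TI replicate 2, the limma log2FC was 2.18 for Sus5 (FDR 0.00841) and 3.09 for Invcw2 (FDR 0.00399), with the lone TI library assumed to vary like the FI libraries, and 17.4% of all genes then had an FDR under 0.05 and higher values in FI. Without TI replicate 1, it was 1.13 for Sus5 (FDR 0.180) and 0.90 for Invcw2 (FDR 0.194). Relative to the FI mean, Sus5 was at 7.71% in TI replicate 1 and 35.7% in TI replicate 2, and Invcw2 was at 0 and 47.5%. The summed floral markers, at 15.5% and 55.9% (5.76% and 51.5% without kn1, which ran the other way), moved with these genes between the TI libraries, and their part in the levels of Sus5 and Invcw2 in TI replicate 2 was not tested. The other isoforms did not follow this pattern, at 105% and 76.8% for sh1, 80.6% and 96.7% for sus1 and 99.5% and 103% for incw1.

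**Figure D2:**
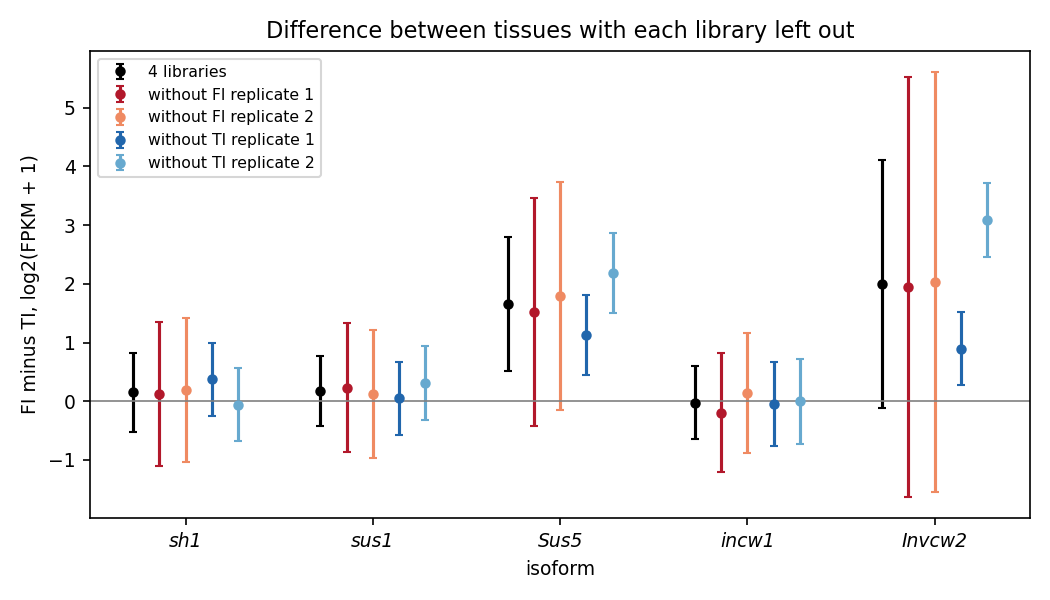
Difference between FI and TI on the log2(FPKM + 1) scale for each isoform, from limma over all genes, with 95% intervals. Black points use the 4 libraries and coloured points leave out the library named in the key. For Sus5 and Invcw2 the value without TI replicate 2 (2.18 and 3.09) is the highest of the 5 and that without TI replicate 1 (1.13 and 0.90) the lowest.

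Within the sucrose synthases, the shares of the summed FPKM were much alike in the tissues except for Sus5. The share of sus1 was 71.6% and 74.3% in the FI libraries, in replicate order, against 68.6% and 77.8% in the TI libraries. The share of sh1 was the lesser in every library, at 26.8%, 24.5%, 31.2% and 21.7% in the same order. For both genes the TI libraries lay on either side of the FI libraries, so that the spread within TI exceeded the difference between the tissue means. Those means were 72.97 ± 1.94% in FI and 73.2 ± 6.48% in TI for sus1 (SD, n = 2 each), and 25.7 ± 1.68% and 26.5 ± 6.77% for sh1. The ratio of sus1 to sh1, at 2.67 and 3.04 in the FI libraries, was 2.20 and 3.59 in the TI libraries. Sus5 contributed 1.56% and 1.19% in FI, 0.124% in TI replicate 1 and 0.540% in TI replicate 2, and here both FI libraries were above both TI libraries.

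Within the cell-wall invertases the leading isoform was not the same in all libraries. Invcw2 held 67.3% and 72.4% of the summed FPKM of the pair in FI, 0% in TI replicate 1 but 51.4% in TI replicate 2. The remainder belonged to incw1, at 32.7% and 27.6% in FI, 100% in TI replicate 1 but 48.6% in TI replicate 2. The FPKM of incw1 ranged only from 2.77 to 3.77, so the shares moved mainly with the FPKM of Invcw2. The mean share of Invcw2 was 69.8 ± 3.59% in FI and 25.7 ± 36.3% in TI (SD, n = 2 each), a difference of 44.1 percentage points beside an SD of nearly that size in TI. Counted as fragments without correction for gene length, incw1 had 67 of the 134 invertase fragments in FI replicate 1 (50%, exact 95% interval 41.2% to 58.8%), 44 of 100 in FI replicate 2 (44.0%, 34.1% to 54.3%), 44 of 44 in TI replicate 1 (100%, 92.0% to 100%) and 37 of 56 in TI replicate 2 (66.1%, 52.2% to 78.2%). The length implied by the FPKM of incw1 was 3900 bases and that of Invcw2 1896 bases, which is why its share of fragments exceeds its share of FPKM.

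**Figure D3:**
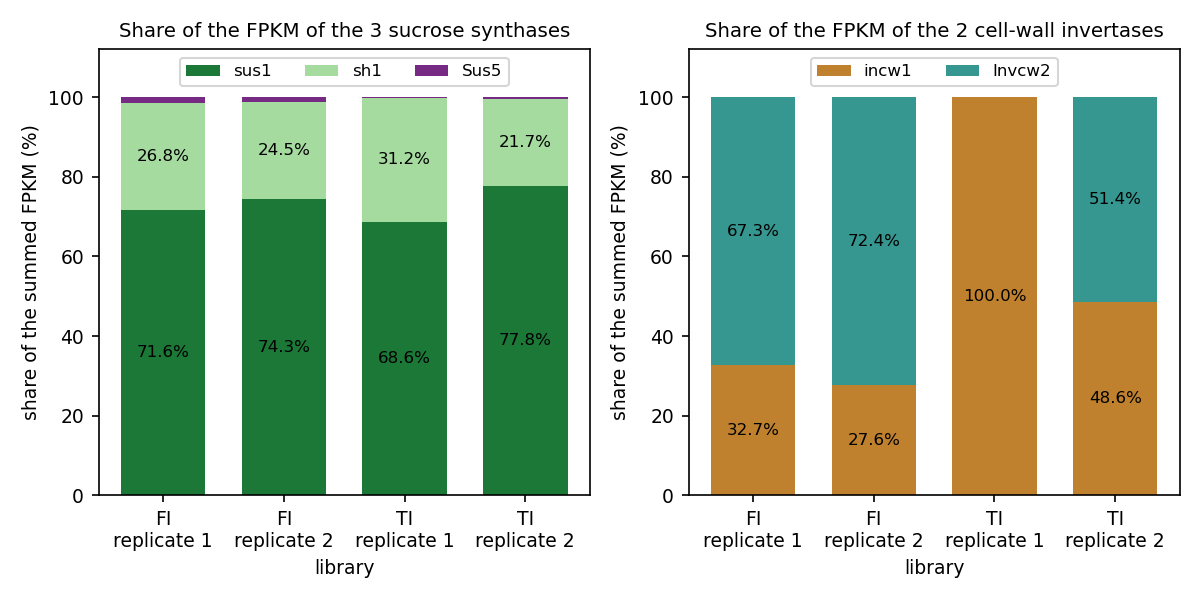
Share of each isoform in the summed FPKM of the 3 sucrose synthases (left) and of the 2 cell-wall invertases (right), in percent, with 1 bar for each library. The share of sus1 stays between 68.6% and 77.8%, whereas incw1 runs from 27.6% in FI replicate 2 to 100% in TI replicate 1.

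Taken over all 5 genes, transcripts of the sucrose synthases far exceeded those of the cell-wall invertases. The summed FPKM of the sucrose synthases was 392 and 408 for the FI libraries against 343 and 363 for the TI libraries, and that of the invertases was 11.5 and 10.0 in FI, 3.26 in TI replicate 1 and 6.95 in TI replicate 2. Both sums were higher in both FI libraries, with p = 0.333 by the exact permutation test, the smallest p it allows. The ratio of the first sum to the second was 34.0 and 40.7 in FI, 105 in TI replicate 1 but 52.2 in TI replicate 2. The mean ratio was 37.3 ± 4.73 in FI and 78.7 ± 37.5 in TI (SD, n = 2 each, exact permutation p = 0.333). Of the FPKM of all 5 genes, Invcw2 made up 1.92% and 1.74% in FI and incw1 0.935% and 0.663%, whereas in TI replicate 1 incw1 made up 0.941%.

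The table of raw counts, made on an earlier annotation, gave another order of the isoforms. It listed 16 counts of sh1 over the 4 libraries, where the FPKM table held 5939 fragments, and 122 counts of sus1 against 19651 fragments. These counts were 0.269% and 0.621% of the fragments. Its rows for sh1 were the transcript models T02, T04 and T06 of GRMZM2G089713, and those for sus1 were T02 and T04 of GRMZM2G152908. Every row of these genes entered the counts above. For incw1 the table had 48 counts (25.0% of the fragments), for Invcw2 21 counts (14.8%) and for Sus5 241 counts (162%). Over 548 genes with at least 100 fragments whose identifiers the study's gene lists pair, the counts were 46.8% of the fragments in the median, and 83 of the genes (15.1%) were under 5%. On counts, Sus5 therefore had 71.2% of the counts of the 3 sucrose synthases in FI and 32.2% in TI, against 1.38% and 0.332% of their FPKM. Shares of sh1 and sus1 are thus given from FPKM.

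On counts, Sus5 separated the tissues in the same direction as on FPKM. Sus5 had 136 and 73 counts in the FI libraries, and only 6 and 26 in those of TI. Its log2FC by edgeR's quasi-likelihood test was 2.12 ± 0.74 (SE), with an unadjusted p of 0.0348 and an FDR of 0.294, where 15.8% of the 15479 genes tested (2443 genes) had an unadjusted p under 0.05 and 0.0% passed both thresholds. Without TI replicate 2 the log2FC was 3.74, and without TI replicate 1 it was 1.35, each resting on a lone TI library. Invcw2 had 13 and 4 counts in FI, 0 in TI replicate 1 and 4 in TI replicate 2, too few to pass the filter on low counts. Without that filter its log2FC was 1.497 ± 1.21 (SE, FDR 0.643), and with TI replicate 2 left out its FDR was 0.133. The log2FC of incw1 was −0.14 (FDR 0.915). That of sus1 was −0.16 (FDR 0.858), of opposite sign to its value on FPKM, and rested on 122 counts.

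Other genes of sucrose metabolism were read from the tables by name, to set the 5 isoforms beside their pathway. There were 15 of them, of which 13 had rows in the count table and 10 had enough counts to be tested. By edgeR's quasi-likelihood test none had an FDR under 0.05, and 3 had an unadjusted p under 0.05, as did 15.8% of all genes tested. In CPM, 3 had both FI libraries above both TI libraries (30.0% of all genes tested). The reverse order was found for 3 (26.5% of all genes). The median log2FC of the 10 was −0.01, beside −0.00149 over all genes tested on counts.

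Among the other enzymes that cleave sucrose, the vacuolar invertase gene ivr2 separated TI replicate 1 from the other libraries. It had 2430 and 1403 counts in FI (999 and 677 CPM), 1 count in TI replicate 1 (0.550 CPM) and 531 counts in TI replicate 2 (365 CPM). This is the order of libraries seen for Invcw2, with TI replicate 2 at 43.5% of the FI mean. By edgeR's quasi-likelihood test its log2FC was 2.20 ± 1.76 (SE, FDR 0.533). Without TI replicate 1 the log2FC was 1.20, and without TI replicate 2 it was 10.4. Each refit left a lone TI library, so the spread within TI was not measured. The sucrose synthase gene sus2 had 73 and 46 counts in FI, 247 in TI replicate 1 and 46 in TI replicate 2 (30.0, 22.2, 136 and 31.6 CPM). Here TI replicate 1 stood apart on the high side, and the log2FC was −1.75 ± 0.73 (SE, FDR 0.329). It was −2.40 without TI replicate 2 but only −0.28 without TI replicate 1.

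Of the genes that act on the products of cleavage, none had an FDR under 0.05 with the 4 libraries. The fructokinase gene frk1, which phosphorylates the fructose released, had 70.3 and 61.8 CPM in FI and 66.0 and 61.8 CPM in TI (log2FC −0.00268, FDR 0.996). The hexokinase gene hex2 had 89.2 and 102 CPM in FI and 109 and 106 CPM in TI (log2FC −0.22, FDR 0.590). The gene ugu1, for UDP-glucose pyrophosphorylase, which uses the UDP-glucose made by sucrose synthase, had 25.9 and 16.9 CPM in FI and 7.15 and 9.62 CPM in TI, with both FI libraries higher. Its log2FC was 1.32 ± 0.44 (SE, FDR 0.286). Dropping TI replicate 2 raised it to 1.55, whereas dropping TI replicate 1 lowered it to 1.15. Each of these fits rests on a lone TI library.

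Of the genes for sucrose synthesis and transport, spp1 (sucrose phosphatase) differed least, at 38.2 and 39.6 CPM in FI and 38.0 and 38.5 CPM in TI. The sucrose phosphate synthase gene sps1 had 1.04 and 0.581 FPKM in FI, 5.16 FPKM in TI replicate 1 and 1.12 FPKM in TI replicate 2. Both TI libraries were above both FI libraries on this scale but not in CPM of the count table, where TI replicate 2 (11.7 CPM) lay below FI replicate 1 (12.7 CPM). On counts its log2FC was −1.70 ± 0.80 (SE, FDR 0.358), with −2.32 without TI replicate 2 but only −0.32 without TI replicate 1. The sucrose transporter gene sut1, which acts in phloem loading, had the highest FPKM of the transporters that could be linked to FPKM values. Its level was 86.5 and 84.3 FPKM in FI, 434 FPKM in TI replicate 1 and 185 FPKM in TI replicate 2. Like sh1 and sus1, sut1 had few counts for its FPKM (0, 0, 1 and 1). Its limma log2FC was −1.72 ± 0.46 (SE, FDR 0.257). Dropping TI replicate 2 moved it to −2.33, whereas dropping TI replicate 1 moved it to −1.11. Each of these fits rests on a lone TI library. Of the transporters that could be tested on counts, sut4 and sut5 were singled out after their values were seen, since each separated the tissues. The level of sut4 was 197 and 170 CPM in FI and 257 and 293 CPM in TI, with a log2FC of −0.63 ± 0.20 (SE, FDR 0.276) that ran from −0.68 to −0.52 with either TI library left out. The rarer sut5 had 4.48 and 4.66 FPKM in FI, 0.267 FPKM in TI replicate 1 and 1.65 FPKM in TI replicate 2 (log2FC 1.60 ± 0.41 by limma, FDR 0.255). As for Sus5, both FI libraries were above TI replicate 2, and TI replicate 1 was lowest. On counts the log2FC of sut5 was 1.75 over the 4 libraries (FDR 0.311), 3.10 without TI replicate 2 and 1.03 without TI replicate 1.

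**Figure D4:**
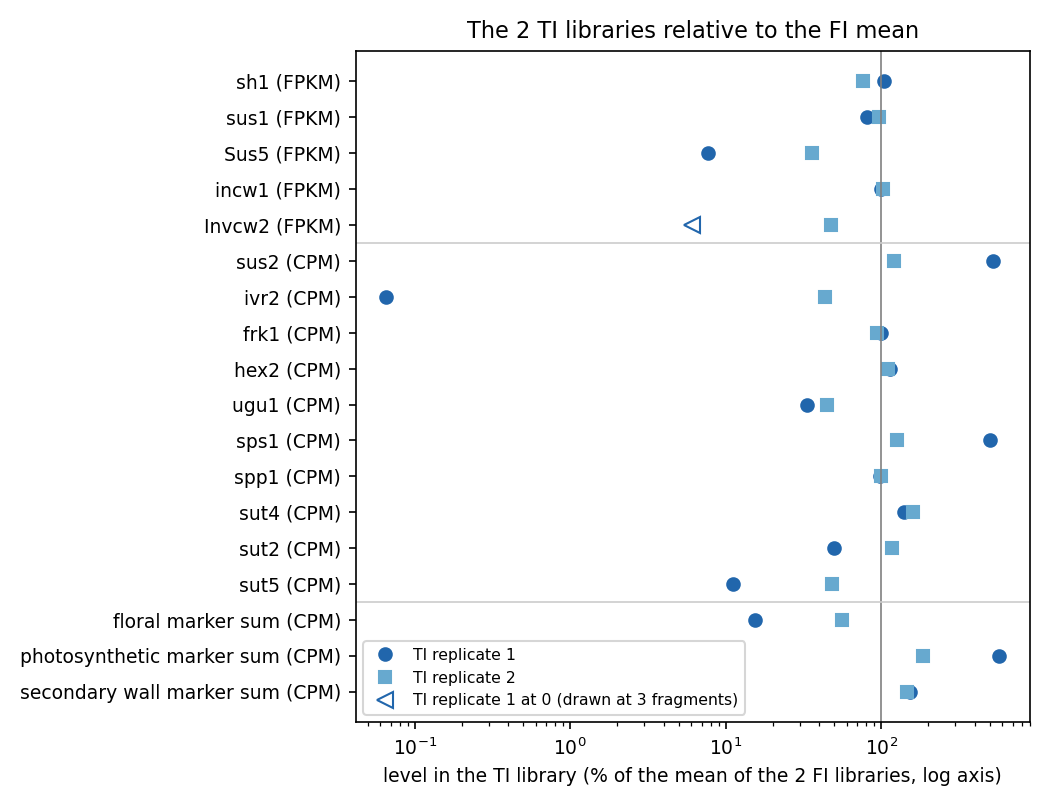
Level in TI replicate 1 (circles) and TI replicate 2 (squares) as a percentage of the mean of the FI libraries, on a log axis, for the 5 isoforms (FPKM), the 10 other tested genes of sucrose metabolism (CPM) and the 3 marker lists (summed CPM). The open triangle is Invcw2 in TI replicate 1, at 0 and drawn at the value of 3 fragments. Sus5 (7.71% and 35.7%), Invcw2 (0 and 47.5%) and ivr2 (TI replicate 2 at 43.5%) lie left of the line at 100%, as do the floral markers (15.5% and 55.9%), and sus1, sh1 and incw1 lie near it.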

How the data were processed

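The authors cleaned paired-end reads with Trimmomatic, checked them with FastQC 0.11.2 and aligned them with TopHat 2.0.13. They deposited raw counts per transcript under version 3 names (B73 RefGen_v3 in the submitters' processing notes, B73 RefGen_v4 in the methods), and the counting tool is not given in the sources used here. The FPKM values were deposited per gene from CLC Genomics Workbench on B73 RefGen_v4. In the count columns the tissue called floral stem was taken as FI, since only 2 tissues were sequenced. The authors' comparison columns hold fold changes and FDR and were not used.

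Mapped totals, gene lengths and whole fragments were recovered from FPKM for all 26122 genes above 0 (tolerance 0.0001 of a fragment), except that a divisor shared by the 4 libraries cannot be seen. FPKM were fitted with limma 3.58.1. Counts, summed over the transcripts of 26167 gene models, were fitted with edgeR 4.0.16 (filterByExpr with minimum count 10 and total 15, TMM) in R 4.3.3. DESeq2 1.42.0 was an alternative. The fits and the recovery were tested on simulated data. Python 3.11.15 did the rest.

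The members and lists were chosen with earlier results of these data known. Invcw2 and Sus5 were linked to version 3 names by the study's primer list and the other 3 by symbol in the RefSeq table (Zm-B73-REFERENCE-NAM-5.0), whose coordinates were not used. Named genes are the 5 isoforms, the other sucrose synthases and invertases, and from each other group the gene with the highest mean FPKM, or mean count where no FPKM could be linked. Of the FPKM identifiers, 0 have a symbol in the RefSeq table, so a search for genes of like pattern and FPKM of the marker lists could not be run, and markers were summed as CPM. Protein sequences were not used here.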

Additional observations from a re-analysis of the deposited data

How the results depend on the processing

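The number of genes passing both thresholds was 0 by limma on FPKM and by edgeR's quasi-likelihood test on counts, where 3524 and 2443 genes had an unadjusted p under 0.05. It was 596 by the exact test on recovered fragments and, on counts, 236 by DESeq2, 361 without a filter on low counts and 590 by the exact test. With each library left out in turn it ran from 0 to 2035 on FPKM and from 0 to 2343 on counts, the highest in both without TI replicate 2, while 182 genes passed on counts without TI replicate 1. Over the same refits on FPKM the log2FC ran from −0.064 to 0.38 for sh1, from 0.05 to 0.31 for sus1, from −0.20 to 0.14 for incw1, from 1.13 to 2.18 for Sus5 and from 0.90 to 3.09 for Invcw2. On recovered fragments, refits chosen after seeing the data, it ran from −0.12 to 0.35 for sh1, from 0.02 to 0.25 for sus1, from −0.33 to 0.16 for incw1, from 1.46 to 3.61 for Sus5 and from 1.04 to 8.83 for Invcw2. The last value depends on the prior count, since the only TI library left was at 0. On counts it ran from −0.52 to 0.15 for sus1, from −0.40 to 0.30 for incw1 and from 1.35 to 3.74 for Sus5. Invcw2, which passed the filter on counts only with a TI library left out, had 0.42 without TI replicate 1 (FDR 0.929) and 5.98 without TI replicate 2 (FDR 0.133). Sus5 had a log2FC of 2.20 by the exact test on fragments (FDR 0.0456). Within each table, no other setting with 4 libraries moved an isoform across the threshold or changed its direction, but sus1 had opposite signs in the tables (0.18 on FPKM, −0.16 on counts). A pseudocount of 0.1 gave 2.42 for Sus5 and 3.65 for Invcw2.

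Shares by fragments without length correction were 22.7% for sh1, 76.5% for sus1 and 0.826% for Sus5 of the sucrose synthases in FI, and 47.0% for incw1 of the invertases in FI. By the count table, chosen after seeing the data, they were 3.47% in FI and 6.34% in TI for sh1, 25.3% and 61.4% for sus1, 71.2% and 32.2% for Sus5, and 64.3% for incw1 in FI. The ratio of the sums ran from 34.0 to 40.7 in FI and from 52.2 to 105 in TI with a library left out. Shares within every gene named as a sucrose synthase or invertase were not run, since FPKM could not be linked to the further names.

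The labels do not say what the replicate numbers mark, and the deviations of same-numbered libraries had a correlation of 0.17 across genes. With a replicate block the number of genes passing both thresholds stayed at 0 in both tables, and Sus5 had a log2FC of 1.66 on FPKM (FDR 0.250) and 2.27 on counts (FDR 0.331). Depth limits the rare isoforms, with 4 fragments of Sus5 and 0 of Invcw2 in TI replicate 1.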
